A study of Mus musculus with 72 samples.

Results

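The atria of mice with no intact copy of Gnb5 were compared with the atria of mice with one, which asks what the loss of the remaining copy changes in the RNA of atrial tissue. The libraries were chosen by genotype and tissue in their titles, and were 6 Gnb5-/- and 6 Gnb5+/- atrial libraries of the 72 in the series. Every animal was a male mouse of 18 weeks, and each library came from a different mouse. The allele lacks exon 3 of Gnb5 in every cell of the body, was kept on C57BL/6J, was recovered from frozen sperm and was bred between heterozygous animals. Both atria were taken whole, so each library mixed atrial muscle with nodal, vascular, connective and blood cells, and a lower level can mean fewer cells of a type or less RNA per cell, which bulk libraries cannot tell apart. The 6 Gnb5+/+ atrial libraries shared the estimate of the spread and are set beside the other groups for scale.

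Gnb5 encodes Gb5, a G protein beta subunit unlike the other 4 in that it pairs with the R7 family of regulators of G protein signalling (RGS6, RGS7, RGS9 and RGS11) in place of a gamma subunit. These complexes speed the hydrolysis of GTP by inhibitory G protein alpha subunits, and each partner is unstable as a protein without the other. In the heart the pair of Gb5 and RGS6 limits the response of the sinoatrial node to acetylcholine, which slows the beat through the muscarinic M2 receptor and the G protein gated potassium channel GIRK.

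Between 33513931 and 46118252 reads fell on genes in each of the 12 libraries (median 38220156 in Gnb5-/- and 36895082 in Gnb5+/- atria). A pair of libraries stood apart from the rest. Mitochondrial genes took 14.1% of reads in Gnb5-/- mouse 10 and 17.5% in Gnb5+/- mouse 13, against 22.7% to 23.9% in the other Gnb5-/- and 23.96% to 28.5% in the other Gnb5+/- atria (exact permutation test between genotypes, two-sided p = 0.227). Leaving out either mouse gave 7 differentially expressed genes in place of 8. A further library, Gnb5+/- mouse 4, held far more thymocyte transcripts than any other, and its values are given beside the genes they touch. Levels below are normalised read counts (CPM), which are scaled by effective library size, and a differentially expressed gene (DEG) had a Benjamini-Hochberg adjusted p under 0.05 in edgeR's quasi-likelihood test over all 16181 genes tested.

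Gnb5 had the smallest p of the genes tested. Its level was 1.49 CPM at the lowest, 1.77 at the median and 2.60 at the highest in Gnb5-/- atria, against 13.8, 15.1 and 18.9 CPM in Gnb5+/- atria and 26.6, 30.3 and 32.9 CPM in Gnb5+/+ atria. The 3 genotypes did not overlap, and every library matched its label. The difference between Gnb5-/- and Gnb5+/- atria was -3.08 on the log2 scale (SE 0.12, adjusted p = 3.30e-12), so that Gnb5-/- atria kept 11.8% of the heterozygous level. Placed on a linear scale from Gnb5-/- (0) to Gnb5+/+ (100), the heterozygous mean lay at 49.2% (SE 3.3). The counts are per gene, and each Gnb5-/- library held 61 to 128 reads on Gnb5, of which the exon cannot be read here.

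Apart from Gnb5 the comparison held 7 DEGs, and 6 of these lay on chromosome 9, which carries Gnb5. In all, 8 of 16181 genes were DEGs (0.0494%), of which 1 was higher (0.00618%) and 7 were lower (0.0433%) in Gnb5-/- atria. On chromosome 9, 7 of 933 genes tested were DEGs (0.75%), and elsewhere 1 of 15248 was (0.00656%). The median log2 difference over all genes tested was 0.0015. At an unadjusted p under 0.05 there were 787 genes (4.86%), of which 305 were higher and 482 lower. Loss of Gnb5 and sequence inherited together with the allele cannot be told apart for genes on this chromosome.

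**Figure D1:**
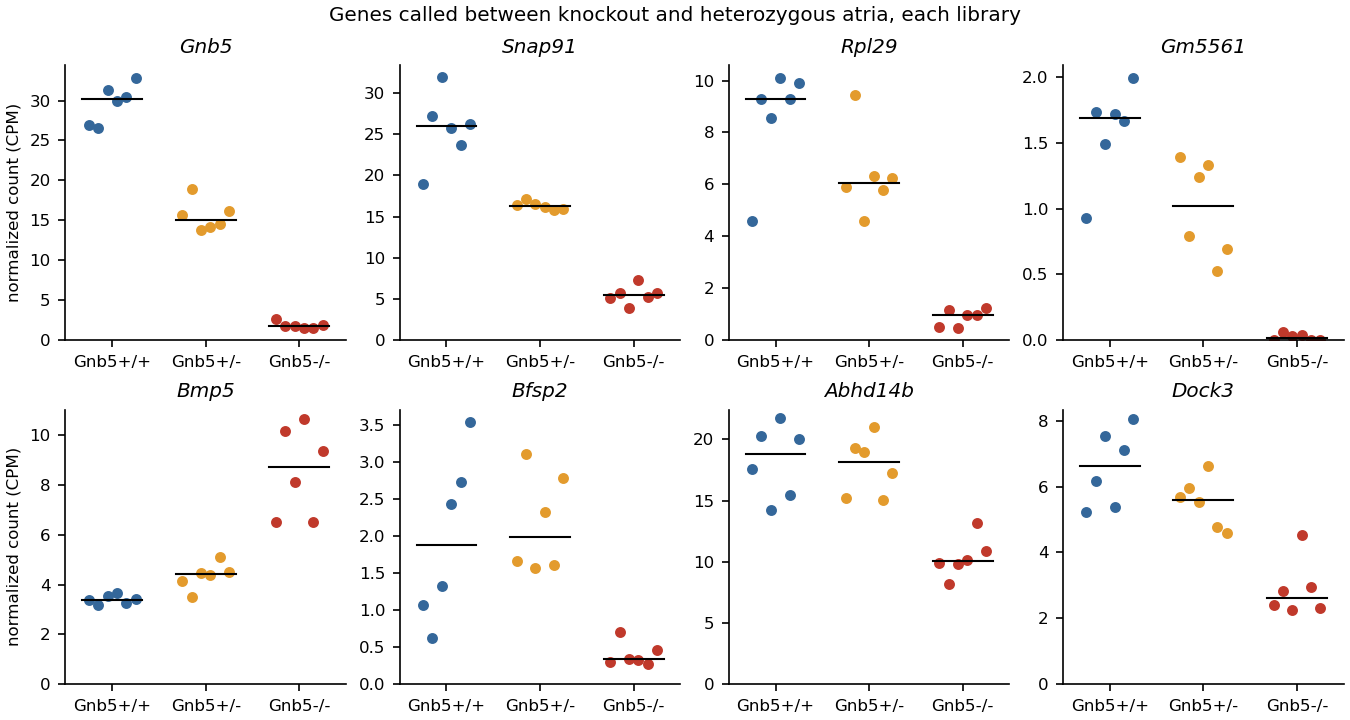
Levels of the 8 DEGs between Gnb5-/- and Gnb5+/- atria, 1 panel a gene. Each point is the normalised read count (CPM) of 1 library, with 6 libraries per genotype, and the horizontal bar is the median; Gnb5-/- and Gnb5+/- points do not overlap in any of the 8 panels, with only Bmp5 higher in Gnb5-/-.

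Snap91, which encodes a clathrin assembly protein best known from the recycling of synaptic vesicles, lies at 86765923 to 86880654 on chromosome 9, 11.4 Mb from Gnb5. Its level ran from 3.90 CPM through a median of 5.46 to 7.29 CPM in Gnb5-/- atria, and from 15.8 through 16.3 to 17.1 CPM in Gnb5+/- atria. The groups were far apart, with a log2 difference of -1.57 (SE 0.12, adjusted p = 5.35e-07). Gnb5+/+ atria lay higher still, at 19.0 to 31.98 CPM, and the heterozygous mean stood at 53.8% (SE 4.9) of the way from Gnb5-/- to Gnb5+/+. Gnb5 and Snap91 were the only genes tested whose 3 genotypes were ordered by dose with no overlap between neighbours.

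Bmp5, a ligand of the transforming growth factor beta superfamily at 75775364 to 75900310 and only 0.43 Mb from Gnb5, was the single DEG that rose. Gnb5-/- atria held 6.52, 8.73 and 10.7 CPM at the lowest, the median and the highest, and Gnb5+/- atria held 3.49, 4.42 and 5.12 CPM. The lowest Gnb5-/- library was above the highest Gnb5+/- library, and the difference was 0.98 (SE 0.13, adjusted p = 7.37e-04), or 1.97-fold. Gnb5+/+ atria ranged from 3.17 to 3.67 CPM, close to the heterozygous range, and the heterozygous mean lay 81.7% (SE 5.1) of the way towards Gnb5+/+.

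A cluster of DEGs lay about 31 Mb away. Rpl29 (106429454 to 106431568) encodes a protein of the large ribosomal subunit, Abhd14b (106447459 to 106452923) a hydrolase of the alpha/beta fold, and Dock3 (106892825 to 107231909) an exchange factor for the GTPase Rac that is known from neurons. Rpl29 was at 0.474, 0.973 and 1.23 CPM in Gnb5-/- and at 4.57, 6.07 and 9.45 CPM in Gnb5+/- atria, a difference of -2.86 (SE 0.25, adjusted p = 1.38e-06). Its level is uncertain, because reads that also aligned to a near copy such as Gm5561, described below, were set apart from the gene counts. Gnb5+/+ atria held 4.58, 9.28 and 10.1 CPM of Rpl29, and overlapped the heterozygotes through single libraries. The lowest Gnb5+/+ value was that of mouse 15, with the next at 8.54 CPM. The highest Gnb5+/- value was that of mouse 13, with the next at 6.34 CPM. The heterozygous mean of Rpl29 lay 71.1% (SE 11.6) of the way from Gnb5-/- to Gnb5+/+. Abhd14b was at 8.16, 10.03 and 13.2 CPM in Gnb5-/- and at 15.1, 18.1 and 21.02 CPM in Gnb5+/- atria (-0.78, SE 0.12, adjusted p = 0.00716). Its Gnb5+/- and Gnb5+/+ values lay over each other, with the heterozygous mean at 94.4% (SE 19.1) of the way from Gnb5-/- to Gnb5+/+.

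Dock3 was the least secure DEG. It ran from 2.24 through 2.62 to 4.54 CPM in Gnb5-/- and from 4.60 through 5.61 to 6.63 CPM in Gnb5+/- atria (-0.94, SE 0.17, adjusted p = 0.0340). The highest Gnb5-/- library, mouse 1, lay just under the lowest Gnb5+/- library. Leaving out any one of Gnb5-/- mice 10, 12, 14, 3 and 5 or Gnb5+/- mice 11, 13, 2 and 4 took Dock3 over the threshold, with adjusted p between 0.0890 and 0.123, whereas leaving out Gnb5-/- mouse 1 gave 7.11e-04.

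Bfsp2 (103424924 to 103480420) encodes phakinin, a filament protein known from the eye lens, and was scarce in every atrium. Gnb5-/- atria held 0.267, 0.334 and 0.702 CPM (11 to 24 reads) and Gnb5+/- atria 1.56, 2.00 and 3.11 CPM (53 to 145 reads). The groups did not overlap and differed by -2.46 (SE 0.37, adjusted p = 0.00497). Its Gnb5+/+ libraries were the most scattered of the 3 genotypes, from 0.627 to 3.55 CPM, and reached into the Gnb5-/- range.

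Genes whose genotypes did not overlap, whether or not they were DEGs, were also more frequent on chromosome 9 than elsewhere. Of all genes tested, 72 (0.445%) had 6 Gnb5-/- values that all lay above or all below the 6 Gnb5+/- values, 32 of them higher and 40 lower. On chromosome 9 there were 23 of 933 (2.47%), 6 higher and 17 lower, and off it 49 of 15248 (0.321%). Chromosome 12 came next, at 0.683%. Within 5 Mb of Gnb5 the share was 4 of 72 genes (5.56%), between 5 and 20 Mb 5 of 196 (2.55%), between 20 and 40 Mb 13 of 404 (3.22%), and beyond 40 Mb 1 of 261 (0.383%). At an unadjusted p under 0.05, chromosome 9 held 104 genes (11.1%) and the other chromosomes 683 (4.48%).

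**Figure D2:**
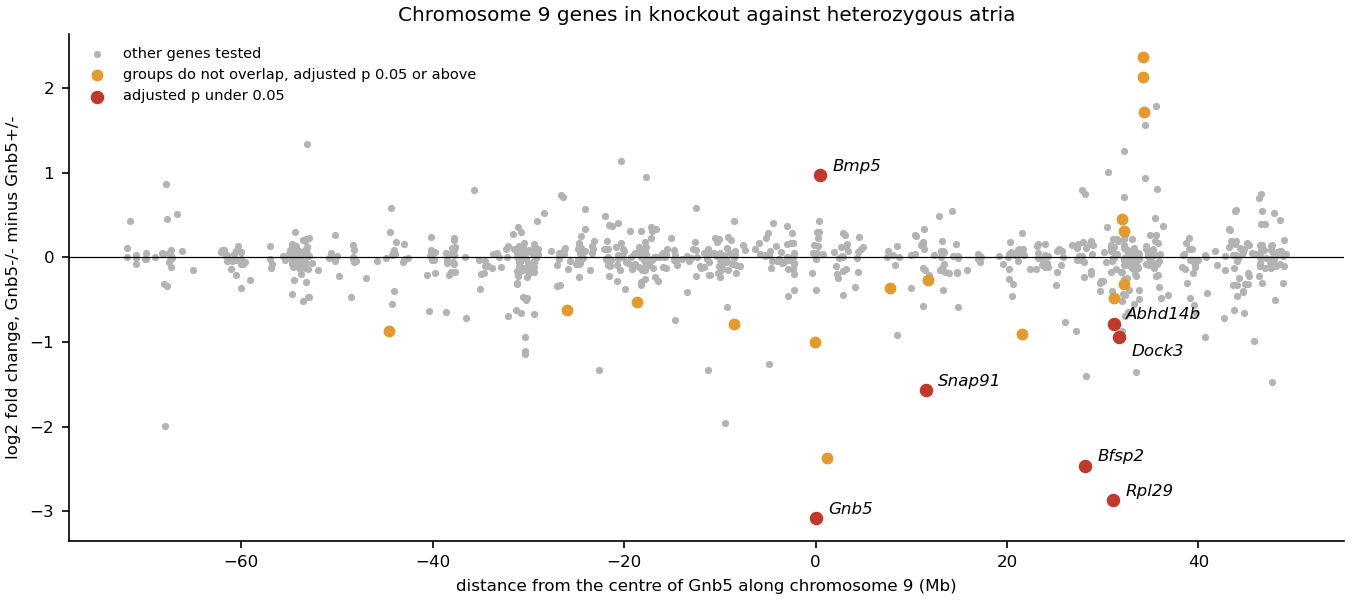
Log2 difference between Gnb5-/- and Gnb5+/- atria (vertical axis) for the 933 chromosome 9 genes tested, against distance from Gnb5 in Mb (horizontal axis). The 7 DEGs and the genes whose genotypes did not overlap are marked; both kinds thin out beyond 40 Mb, where no DEG and 1 such gene lay.

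Several of the genes with no overlap on chromosome 9 missed the adjusted threshold, and they were named after their values were seen. Parp3, an ADP-ribosyltransferase of DNA repair, had a median of 36.3 CPM in Gnb5-/- atria, 52.8 CPM in heterozygotes and 60.1 CPM in Gnb5+/+. Myo5c, a class V myosin, had medians of 2.32, 4.26 and 6.45 CPM in the same order, and Pxylp1, a phosphatase of proteoglycan synthesis, 8.80, 16.95 and 17.8 CPM. Nprl2, a subunit of the GATOR1 inhibitor of mTORC1, ran the other way, with a Gnb5-/- median of 21.2 CPM against 16.96 and 15.7 CPM. In 18 of the 23 genes the median of Gnb5+/- atria lay between those of the homozygous groups.

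The stretch from Rpl29 to Hyal1 (chromosome 9, 106429454 to 107581710, GRCm38, bounds chosen after the values were seen) held 28 genes tested over 1.15 Mb. It contained 3 DEGs, 7 genes with no overlap, of which 2 were higher and 5 lower, and 11 genes with an unadjusted p under 0.05. The shares in that order were 0.75%, 2.47% and 11.1% over chromosome 9, and 0.0494%, 0.445% and 4.86% over all genes tested. Rpl29 and Hyal1 at its ends are themselves genes with no overlap, so the choice of bounds partly fixes the counts in the stretch. The changes in it ran in both directions, with Rpl29, Abhd14b, Dock3, Parp3 and Hyal1 lower and Nprl2 and Hemk1 higher.

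The single DEG off chromosome 9 was Gm5561, a processed pseudogene on chromosome 1 (179520378 to 179520857) whose sequence is a near copy of Rpl29. Reads that aligned to more than 1 place were set apart from the gene counts, so the levels of Rpl29 and Gm5561 are both uncertain. Gm5561 had 0 to 2 reads in each Gnb5-/- library and 19 to 55 in each Gnb5+/- library, or 5 against 229 reads in all. That is 2.04% of the heterozygous level (95% exact Poisson interval 0.657% to 4.84%, counting error only). No Gnb5-/- library approached a Gnb5+/- one, and the test gave an adjusted p of 1.90e-06. The sequences below show how alike the source gene and the copy are, and a second pair, whose pseudogene differed in the other direction, follows. Each is 60 bases of a transcript in GENCODE M21, read 5′ to 3′ on its own strand in GRCm38, with the 1 base that differs within the pair in capitals. Rpl29 is shown from exon 3 (chr9:106430308-106430367, plus strand) with Gm5561 (chr1:179520761-179520820, minus strand), and 472 of their 480 aligned bases are the same (98.3%).
Rpl29: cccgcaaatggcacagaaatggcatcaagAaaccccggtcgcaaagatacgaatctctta
Gm5561: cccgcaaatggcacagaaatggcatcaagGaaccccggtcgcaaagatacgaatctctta
Cyb5r4, a cytochrome b5 reductase gene of chromosome 9, is shown from exon 2 (chr9:87027001-87027060, plus strand) with the pseudogene Gm11868 (chr4:18845593-18845652, minus strand), and 1455 of their 1478 aligned bases are the same (98.4%).
Cyb5r4: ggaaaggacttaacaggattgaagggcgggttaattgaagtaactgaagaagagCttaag
Gm11868: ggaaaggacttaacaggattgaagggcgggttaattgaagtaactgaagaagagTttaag

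Of 267 processed pseudogenes tested off chromosome 9, 248 shared 31-base words with a protein-coding transcript, and for 22 of them (8.87%) the best match was a chromosome 9 gene. The 5 pseudogenes that were DEGs against either other genotype, or did not overlap between Gnb5-/- and Gnb5+/- atria, all had their best match there: Gm5561 and Gm8210 to Rpl29, Gm11868 to Cyb5r4, Oaz2-ps to Oaz2 and Gm7049 to Me1. They were named after their values were seen. Gm11868 held 8.36, 10.9 and 12.3 CPM in Gnb5-/- and 4.63, 5.05 and 6.65 CPM in Gnb5+/- atria, with no overlap, whereas 5 of 6 Gnb5+/+ atria held at most 0.157 CPM. Its log2 difference between Gnb5-/- and Gnb5+/- atria was 1.00, with an adjusted p of 1.00 in the 18 libraries and of 0.00150 when the 12 libraries were fitted alone. Oaz2-ps likewise held 0.996, 1.15 and 1.40 CPM in Gnb5-/- and 0.508, 0.615 and 0.744 CPM in Gnb5+/- atria. Cyb5r4 itself was lower in Gnb5-/- atria without overlap, with medians of 35.9 and 44.1 CPM.

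**Figure D3:**
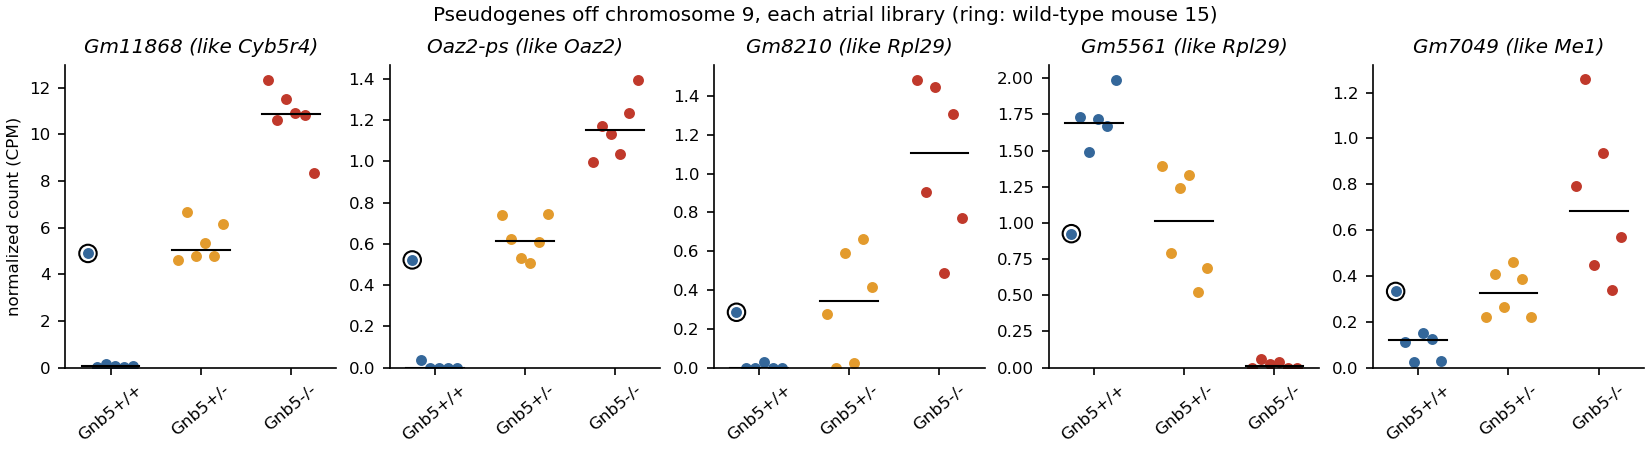
Levels of the 5 processed pseudogenes off chromosome 9 whose best sequence match is a chromosome 9 gene, by genotype. Each point is the normalised read count (CPM) of 1 atrial library; Gm11868 and Oaz2-ps step up from Gnb5+/+ to Gnb5+/- to Gnb5-/-, apart from 1 Gnb5+/+ library (mouse 15) at the heterozygous level, and Gm5561 is near 0 in Gnb5-/-.

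In the 18 atrial libraries edgeR called no protein-coding gene off chromosome 9. With the 12 libraries fitted alone it called Ptpn14 (adjusted p = 0.0349), Stom (0.0429), Lrp2bp (0.0471) and Comp (0.00498). In the 18 libraries the smallest p among them was that of Ptpn14, a protein tyrosine phosphatase that binds the growth regulator YAP. It held 104, 109 and 124 CPM in Gnb5-/- atria and 84.6, 87.1 and 92.8 CPM in Gnb5+/- atria, and the groups did not overlap (0.35, SE 0.07, adjusted p = 0.0695). Npr3, the receptor that clears natriuretic peptides, held 309, 385 and 398 CPM against 267, 300 and 311 CPM (0.34, SE 0.08, adjusted p = 0.288). Its groups overlapped narrowly, between 309 and 311 CPM. The ephrin receptor gene Epha7 (0.34) also stood higher in Gnb5-/- atria, with an adjusted p of 0.322.

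Beside Gm5561, 5 of the 10 genes of smallest p off chromosome 9 stood lower in Gnb5-/- atria. Lrp2bp, whose product binds the endocytic receptor megalin, held 2.44 to 2.91 CPM against 3.33 to 5.17 CPM (-0.74, adjusted p = 0.192). Aox3, an aldehyde oxidase, held 6.97 to 9.24 CPM against 9.73 to 15.96 CPM (-0.59, adjusted p = 0.253). Both were free of overlap. Prr29 (-0.61), the carboxylesterase gene Ces2f (-2.25, at under 1 CPM in every library) and the acyl-CoA synthetase gene Acsl6 (-0.45) had adjusted p between 0.287 and 0.322. DESeq2 called 26 genes (0.161%), 11 of them off chromosome 9, and this larger set included Ptpn14, Lrp2bp, Aox3, Npr3, Prr29, Gpr158, Comp, Acsl6 and Epha7 beside Gm5561.

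Among the partners and anchors of Gb5, 0 of 7 genes tested were DEGs by edgeR, with 1 at an unadjusted p under 0.05 and 1 DEG by DESeq2, both Gpr158. Their median log2 difference was -0.03. Rgs6, the R7 gene of the sinoatrial node, held 91.5, 101 and 116 CPM in Gnb5-/- and 86.7, 103 and 108 CPM in Gnb5+/- atria (0.02, SE 0.07). These ranges lay on each other. Rgs7 differed by 0.12 (SE 0.10), Rgs11 by -0.03 (SE 0.20), Rgs9 by 0.25 (SE 0.32), the membrane anchor Rgs7bp by -0.13 (SE 0.20) and the retinal anchor Gpr179 by -0.15 (SE 0.30), all with an adjusted p of 1.00. Rgs9bp was under the filter.

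Gpr158, a membrane receptor that binds R7 proteins, was the one member to stand apart. It held 4.37, 7.38 and 8.23 CPM in Gnb5-/- atria and 9.11, 11.2 and 15.2 CPM in Gnb5+/- atria. The groups did not overlap (exact permutation test, two-sided p = 0.00216, the smallest that 6 against 6 allows), but the difference of -0.75 (SE 0.18) had an adjusted p of 0.322 over all genes. Gnb5+/+ atria, from 7.86 CPM upwards, overlapped both.

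None of the 4 conventional beta subunit genes was a DEG by edgeR, and none reached an unadjusted p under 0.05. Gnb1 differed by 0.05 (SE 0.06), Gnb2 by 0.02 (SE 0.10) and Gnb4 by 0.01 (SE 0.08). Gnb3 differed by 0.41 (SE 0.22), with 1.42 to 3.48 CPM in Gnb5-/- and 1.55 to 2.07 CPM in Gnb5+/- atria.

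**Figure D4:**
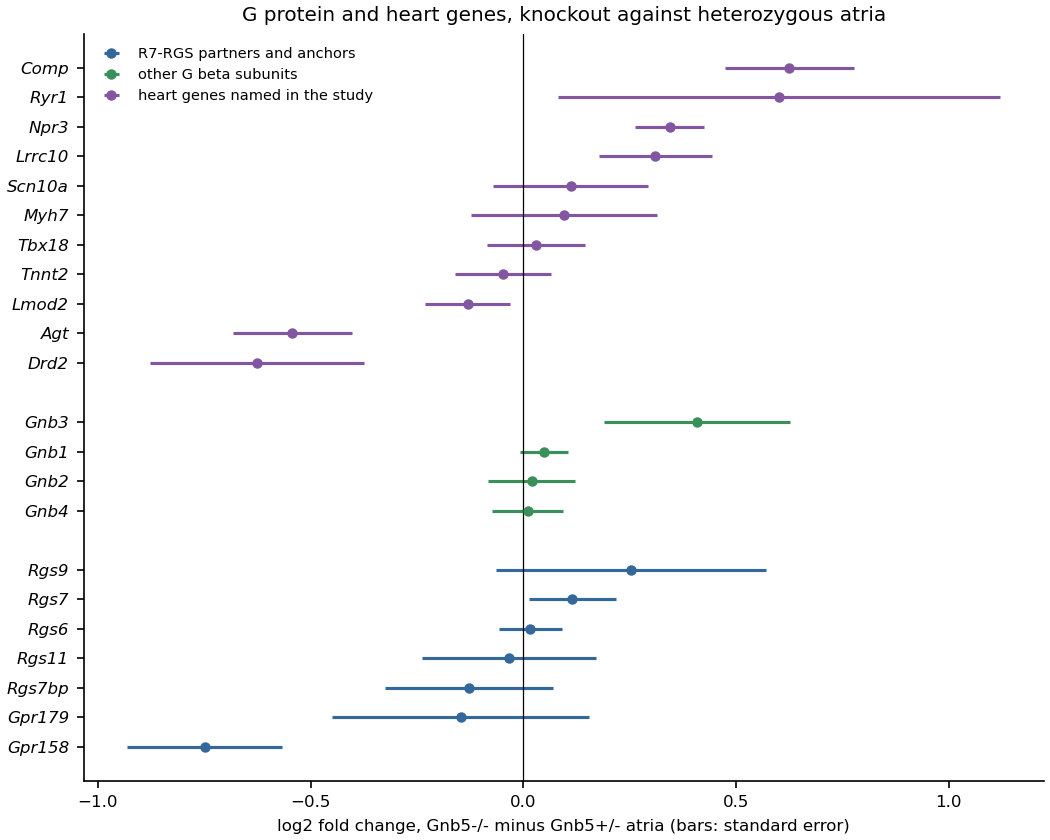
Log2 difference between Gnb5-/- and Gnb5+/- atria (horizontal axis) for partners and anchors of Gb5, the other beta subunits and heart genes that the study names. Points are fitted differences and bars their standard errors; Comp (0.63), Ryr1 (0.60), Agt (-0.54), Drd2 (-0.63) and Gpr158 (-0.75) lie farthest out, Ryr1 with the longest bar, and Rgs6 and Gnb1 lie near 0, with no DEG among the genes drawn.

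The pathways by which acetylcholine and noradrenaline set the beat were described gene by gene from lists, and no member was a DEG by edgeR. Over all genes the shares were 0.0494% for DEGs and 4.86% at an unadjusted p under 0.05, so lists of this length would hold no DEG and about 1 gene at the unadjusted level. From the M2 receptor to GIRK, 0 of 19 genes were DEGs and 1, the gamma subunit gene Gng7, had an unadjusted p under 0.05 (1.17 to 1.91 CPM in Gnb5-/- and 1.84 to 2.87 CPM in Gnb5+/- atria, -0.64). The receptor gene Chrm2 differed by -0.01 and the channel genes Kcnj3 and Kcnj5 by -0.16 and -0.03. Of 18 beta-adrenergic genes, 0 were DEGs and 0 had an unadjusted p under 0.05, with differences between -0.21 and 0.14. Of 16 sinoatrial and pacemaker genes, 0 were DEGs and 0 passed without adjustment, in libraries where nodal cells were diluted by the rest of the atria.

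Genes of contraction and conduction gave the same counts, 0 DEGs by edgeR in each list. That held for 19 conduction and repolarisation channels (2 lower at an unadjusted p under 0.05), 21 sarcomere genes (1 higher), 15 calcium handling genes (1 lower), 12 natriuretic and renin-angiotensin genes (2 higher, 1 lower) and 13 matrix genes (2 higher). Medians of these lists ran from -0.06 to 0.03 against 0.0015 over all genes. Nppb, the B-type natriuretic peptide gene raised in strained muscle, held 103, 218 and 439 CPM in Gnb5-/- and 110, 126 and 229 CPM in Gnb5+/- atria (0.79, SE 0.32, adjusted p = 0.979). The whole heterozygous range lay inside the Gnb5-/- range.

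Among 12 heart genes that the study names, 0 were DEGs by edgeR, with 3 higher and 2 lower at an unadjusted p under 0.05. The study chose them on these hearts, so they are not independent. It compared Gnb5-/- with Gnb5+/+ mice, and reported Lrrc10, Tnnt2, Drd2, Tbx18 and Gnb3 as changed in ventricles. Comp, a glycoprotein of the extracellular matrix, held 56.6, 68.1 and 79.5 CPM in Gnb5-/- and 38.1, 45.9 and 48.1 CPM in Gnb5+/- atria. The groups did not overlap, and the difference was 0.63 (SE 0.15, adjusted p = 0.322). Comp was a DEG in 4 of 22 alternative fits. Agt, which encodes angiotensinogen, held 8.52, 10.5 and 12.98 CPM against 11.9, 15.4 and 17.7 CPM (-0.54, adjusted p = 0.401). Drd2, the dopamine D2 receptor gene on chromosome 9, held 4.86, 6.85 and 8.07 CPM against 8.33, 10.4 and 12.9 CPM (-0.63, SE 0.25, adjusted p = 0.977), also without overlap. Gnb5+/+ atria ran from 3.03 to 12.96 CPM of Drd2, over both groups, and Gnb5-/- atria differed from them by -0.05. Between Gnb5-/- and Gnb5+/- ventricles of the same mice Drd2 went the other way (0.58, SE 0.17, adjusted p = 0.326). The edgeR test of the difference between the tissues gave -1.19 (SE 0.20, adjusted p = 0.103) for Drd2. Ryr1 differed by 0.60 (SE 0.52), with its highest value in Gnb5-/- mouse 1. Lrrc10, a cardiac leucine-rich repeat gene, differed by 0.31, and Scn10a, Myh7, Tbx18, Tnnt2 and Lmod2 differed by 0.11, 0.10, 0.03, -0.05 and -0.13, all with an adjusted p over 0.9.

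Of the 5 genes that led the comparison of Gnb5-/- with Gnb5+/+ atria, which shares the Gnb5-/- libraries, Snap91, Rpl29, Gm5561 and Bmp5 were DEGs here and Fam81a was not. Fam81a, 1 of the 2 DEGs (0.0124%) between Gnb5+/- and Gnb5+/+ atria (2.36, adjusted p = 4.16e-04), did not differ detectably between Gnb5-/- and Gnb5+/- atria (0.23, SE 0.25). It held 8.57 to 13.4 CPM in Gnb5-/- atria, 7.64 to 11.9 CPM in heterozygotes and 1.04 to 4.83 CPM in Gnb5+/+. Heterozygous atria differed from the midpoint of the homozygous groups, on the log2 scale, for 3 genes (0.0185% of 16181): Gnb5, Rpl29 and Gm5561. They lay above it by 1.07 for Gnb5 (SE 0.09), 1.22 for Rpl29 (SE 0.19, adjusted p = 0.0154) and 2.37 for Gm5561 (adjusted p = 0.00504, a value that depends on the prior count because 3 Gnb5-/- libraries held 0 reads). A gene at the linear midpoint lies above the log2 midpoint, as Gnb5 did.

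In ventricles of the same 12 mice, 5 of the 8 atrial DEGs were also DEGs, of 6 that could be tested there. The ventricles held 13 DEGs among 14866 genes tested (0.0874%). Gnb5 differed by -3.31, Snap91 by -2.29, Rpl29 by -2.38, Gm5561 by -5.63 and Abhd14b by -0.68 (adjusted p = 0.0354). The other one tested was Bmp5, which held 1.00 to 1.496 CPM in Gnb5-/- and 0.652 to 1.84 CPM in Gnb5+/- ventricles, with full overlap and a difference of -0.09. Its atrial and ventricular differences were 1.03 apart (SE 0.28), which did not pass adjustment in the test of that difference (adjusted p = 0.711).

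Over 17295 genes, 1 (0.00578%) had an effect of the second copy that differed between the tissues, the transcribed processed pseudogene Gm31520 on chromosome 6, whose level is uncertain if reads of its source gene were counted to it. In atria it held 10.3, 13.3 and 18.0 CPM in Gnb5-/- and 11.6, 14.9 and 17.4 CPM in Gnb5+/- (-0.11). In ventricles it held 1.07, 2.40 and 2.62 CPM in Gnb5-/- and 0.400, 0.699 and 1.07 CPM in Gnb5+/- (1.55, adjusted p = 0.0354). Genotypes overlapped in atria and nearly met at 1.07 CPM in ventricles, and the difference of the effects was -1.65 (SE 0.21, adjusted p = 0.0065).

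Markers of other cells stood high in single libraries of both genotypes. In Gnb5+/- mouse 4, 7 thymocyte genes summed to 180 CPM, against 1.65 to 4.61 CPM in Gnb5-/- atria, and Rag1, which cuts antigen receptor genes, reached 60.2 CPM. Gnb5+/- mice 13 and 6, with sums of 10.2 and 5.95 CPM and Rag1 at 2.92 and 1.77 CPM, also lay above every Gnb5-/- library, and the other 3 Gnb5+/- libraries did not. All 4 thymocyte genes tested (Cd4, Cd8a, Cd8b1 and Themis) were lower in Gnb5-/- atria at an unadjusted p under 0.05, and 0 of 4 were without mouse 4. All 7 cell division genes, among them Mki67 and Top2a, were lower at that level (differences of -1.14 to -1.93, no DEG by edgeR), and without it 4 of 7 remained so, with all 7 differences still negative. Summed cell division genes were at 9.79 to 19.9 CPM in Gnb5-/- atria, at 90.4 CPM in that mouse and at 10.8 to 35.9 CPM in the other Gnb5+/- atria, of which mice 11 (35.9 CPM) and 13 (21.2 CPM) also exceeded every Gnb5-/- library. Gnb5+/+ atria held 8.36 to 21.3 CPM, which covered the whole Gnb5-/- range, so these sums were not lower in Gnb5-/- than in Gnb5+/+ atria. Gnb5-/- mouse 1 held the skeletal myosin gene Myh4 at 7.49 CPM and the neuronal filament gene Prph at 3.28 CPM, each the highest of the 12 libraries. Its summed skeletal muscle genes (49.5 CPM) were not the highest, and lay below those of Gnb5-/- mouse 5 (52.3 CPM) and Gnb5+/- mouse 9 (59.0 CPM). Without Gnb5+/- mouse 4, the difference of leptin (Lep) went from -3.93 to -0.79. Other adipocyte genes did not share this fall: Adipoq went from 0.46 to 0.98, Plin1 from 0.19 to 0.60 and Cidec from -0.11 to 0.76. Summed adipocyte genes were also high in Gnb5-/- mouse 12 (88.5 CPM). Without Gnb5+/- mouse 4, genes lower at an unadjusted p under 0.05 numbered 409 in place of 482, and there were 7 DEGs.

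**Figure D5:**
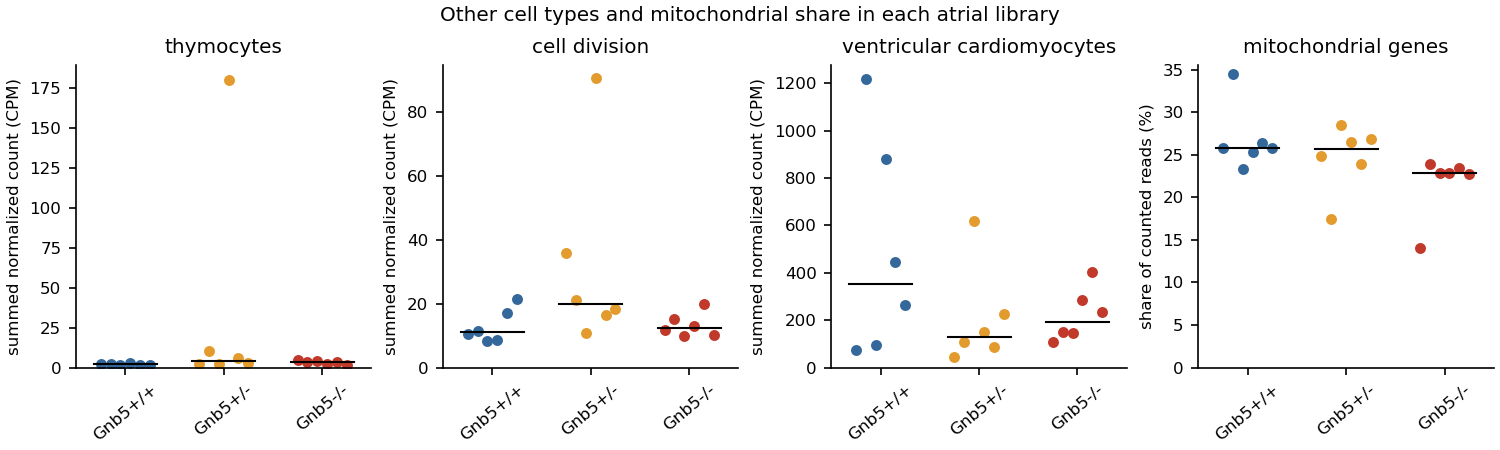
Summed normalised read counts (CPM) of thymocyte, cell division and ventricular muscle genes, and the share of reads on mitochondrial genes (%), in each atrial library by genotype. Each point is 1 library and the horizontal bar is the median; 1 Gnb5+/- library, mouse 4, stands at 180 CPM for thymocyte genes and 90.4 CPM for cell division genes, above all Gnb5-/- libraries.

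The other lists of cell type markers (atrial and ventricular muscle, fibroblasts, endothelium, smooth muscle, epicardium, macrophages, lymphocytes, adipocytes, skeletal muscle, autonomic neurons, Schwann cells, lung and blood) held 0 DEGs by edgeR, and the ranges of their summed levels overlapped between the genotypes. Ventricular muscle genes, among them Myl2, summed to 108 to 405 CPM in Gnb5-/- and 43.4 to 618 CPM in Gnb5+/- atria, and erythroid genes to 1428 to 10470 CPM and 1795 to 4999 CPM. Atrial muscle genes summed to 24360 to 39440 CPM and 24260 to 35060 CPM, so the labelled tissue held its markers in all 12 libraries. Lung epithelial genes were at 0 CPM in every library of both genotypes. The part of these other cells in any difference above was not tested, apart from the values without mouse 4 and the 8 DEGs found again with Myl2 as a term.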

How the data were processed

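Bulk RNA-seq was made from whole atria of 6 mice per genotype. Per the labels and the study's methods, reads were trimmed with cutadapt 1.8 and aligned to GRCm38 with STAR 2.5.3a, and the authors deposited raw counts of reads per Ensembl gene from HTSeq 0.9.1. Of 53715 identifiers, 53620 matched GENCODE M21, and all positions are from that annotation. Lines for reads outside genes were left out. Ribosomal and low-complexity reads had been removed before alignment, and each library was 1 mouse. Libraries held 33513931 to 46118252 reads on genes, and libraries of 1 genotype differed by far more than counting error (chi-square per degree of freedom of 22.4 to 163), so the spread between mice, which the test estimates, limits most genes.

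Counts were tested with edgeR 4.0.16 (TMM scaling, quasi-likelihood, a count minimum of 10, genotype alone) in all 18 atrial libraries in R 4.3.3, with Benjamini-Hochberg adjustment over all genes tested, after a run on simulated data. Single-gene exact permutation tests used log2 CPM with a prior count of 2 over 924 splits. Atria and ventricles of the same mice were compared in 1 fit with mouse as a block. Alternatives were DESeq2 1.42.0, other scaling and filters, the 12 libraries alone, a replicate block, a mouse number term (up to 6 against 9 and over), each library left out, 1 surrogate variable (sva 3.50.0) and, chosen after seeing the data, Myl2 as a term and 3 alternatives for the ventricles. Named were Gnb5, every DEG, the 10 genes of smallest p off chromosome 9, genes passing the tissue or midpoint test and members of 4 short lists. One gene that the rule names is not reported here. The thymocyte and cell division lists were added after their values were seen. Members and lists were chosen with earlier results of these data known. Processed pseudogenes were matched to protein-coding transcripts by shared words of 31 bases.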

Additional observations from a re-analysis of the deposited data

Results flagged for a closer look

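In 114 groups of 6 values (named genes and summed marker lists, each genotype apart), 14 had a highest or lowest library far from the other 5, where chance gives about 1 in 20. Gnb5+/- mouse 4 was such a library in 3 of them, with sums of 180 CPM for thymocyte genes, 90.4 CPM for cell division genes and 109 CPM for adipocyte genes. The thymocyte and cell division lists were added after their values were seen, so the rate of 1 in 20 does not apply to them. Among the DEGs, Gnb5 stood highest in Gnb5-/- mouse 10 (2.60 CPM), Dock3 in Gnb5-/- mouse 1 (4.54 CPM) and Rpl29 in Gnb5+/- mouse 13 (9.45 CPM).

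Gnb5-/- mouse 1 also held the highest Rgs9 (1.40 CPM) and the highest Ryr1, the skeletal muscle calcium release channel gene (2.12 CPM). Rgs11 was lowest in Gnb5-/- mouse 14 (0.526 CPM) and Rgs6 in Gnb5+/- mouse 11 (86.6 CPM). Acsl6 was lowest among Gnb5-/- atria in mouse 10 (26.4 CPM) and highest among Gnb5+/- atria in mouse 9 (53.5 CPM). Ventricular muscle genes summed to 618 CPM in Gnb5+/- mouse 2, and fibroblast genes to 1590 CPM in Gnb5+/- mouse 6, the lowest of that genotype. The effect of the second Gnb5 copy on Gm31520 differed between atria and ventricles by -1.65 on the log2 scale in the test of that difference.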

How the results depend on the processing

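Gnb5, Snap91, Rpl29 and Bfsp2 remained DEGs in each of the 22 alternatives, and Gm5561 in each of the 21 that tested it. Bmp5 and Abhd14b missed the threshold only with the replicate number as a block (adjusted p = 0.177 for both), and Dock3 missed it in 12 of 22. DESeq2 gave 26 DEGs, 15 on chromosome 9 and 11 off it, and the 12 libraries alone gave 13, 6 of them off it. Off chromosome 9 there were 2 with no filter, 0 with 10 counts in every library, 3 with the mouse number term and 2 with 1 surrogate variable. Leaving out each library in turn gave 7 to 10 DEGs, 6 to 8 on chromosome 9 and 1 to 3 off it. The 3 came without Gnb5-/- mouse 5 (Gm5561, Scn4a and Prr29). DESeq2 gave 7 genes off the midpoint in place of 3, 16 that differed between tissues in place of 1 and 69 DEGs in ventricles in place of 13.

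Replicate numbers join different animals, and same-numbered libraries did not deviate together (correlations of -0.207 to 0.135, with 0 of 6 best with its own number). The replicate block gave 8 DEGs, 4 on chromosome 9 and 4 off it (Comp, Rag1, Dntt and Gm5561), and 5 were shared with the 8 above.

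Small differences changed sign. With 1 surrogate variable Gnb4 went to -0.012, Gnb2 to -0.015 and Tbx18 to -0.015. With single libraries left out, Gnb4 ran from -0.040 to 0.049, Gnb2 from -0.019 to 0.059, Tnnt2 from -0.12 to 0.012, Rgs11 from -0.11 to 0.076, Tbx18 from -0.023 to 0.096, Rgs9 from -0.15 to 0.48, Rgs6 from -0.027 to 0.045, Ryr1 from -0.47 to 0.83 and Gpr179 from -0.30 to 0.090. Except where named above, the cause was not tested. Genes at a few reads per library, such as Gm5561, are limited by depth.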

Other observations

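Igf1r, the receptor for insulin-like growth factor, and the collagen gene Col23a1 stood higher in all 6 Gnb5-/- than in all 6 Gnb5+/- atria, by 0.33 and 0.46 on the log2 scale, and the acute-phase gene Serpina3n and the Mas receptor gene Mas1 stood lower, by -0.58 and -0.68. None passed adjustment, and they were named after their values were seen among 49 such genes off chromosome 9 (0.321% of 15248 tested).

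In atria of Gnb5+/+ mouse 15 all 5 pseudogenes that match chromosome 9 genes lay within the Gnb5+/- range. For Gm8210 that range ran from 0 to 0.664 CPM and held every Gnb5+/+ atrial library, so it does not set mouse 15 apart. In the ventricles of mouse 15 none of the 5 lay within the Gnb5+/- range. Oaz2-ps (0.206 CPM) and Gm7049 (0.275 CPM) lay below it there, and Gm11868, Gm8210 and Gm5561 (2.64 CPM) above it. Gm11868 was at 4.89 CPM in its atria, where the other 5 Gnb5+/+ libraries held 0.0315 to 0.157 CPM and Gnb5+/- atria 4.63 to 6.65 CPM. In its ventricles Gm11868 was at 4.15 CPM, against 0 to 0.0899 CPM in the other Gnb5+/+ and 2.90 to 4.07 CPM in Gnb5+/- ventricles. Gm8210 was at 0.995 CPM in its ventricles, at 0 CPM in those of the other 5 Gnb5+/+ mice and at up to 0.822 CPM in Gnb5+/- ventricles. The same atria had the lowest Snap91 (19.0 CPM) and Rpl29 (4.58 CPM) of their genotype, while Gnb5 itself was at 26.9 CPM, within the Gnb5+/+ range.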
